A study of Mus musculus with 6 samples.

Results

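Immunoglobulin transcripts were measured in 6 RNA-seq libraries of mouse bone marrow-derived macrophages (BMDMs) that had been co-cultured with ID8, a mouse ovarian cancer cell line. Gene segments were taken from the deposited table of FPKM, a read count divided by gene length and by library size, in which 54532 genes are listed. Members were the rows with an immunoglobulin biotype that is no pseudogene, a gene length of at least 100 bases and FPKM above 0 in 3 or more of the 6 libraries. They were therefore chosen by detection in these same libraries, and 206 of 54532 genes met the rule. The cancer cells had received either cisplatin at 40 µM, a chemotherapy agent that damages DNA, or phosphate-buffered saline (PBS) before co-culture, and each condition has 3 libraries. The marrow cells of both groups came from C57BL/6 mice aged 6 to 8 weeks and were grown in RPMI medium with 10% serum. Neither the methods nor the labels describe a sort of the cells collected after co-culture. All 6 libraries carry the label BMDM, whereas the methods call the cells bone marrow-derived monocytes. The methods call the replicates biological but do not say whether they came from separate animals or cultures, so p-values measure only the spread between these samples, which may be technical.

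An antibody is built from 2 heavy and 2 light chains, and the light chains are of the kappa or the lambda type. Developing B cells join a variable, a diversity and a joining segment on the heavy chain locus, and a variable and a joining segment on a light chain locus. The joined exon is then spliced to a constant region exon, so that a read from the variable part and a read from the constant part of 1 messenger RNA are assigned to different genes of the table. Macrophages do not rearrange these loci, and immunoglobulin messenger RNA is known as a product of the B lineage, from pre-B cells in the marrow to antibody-secreting plasma cells.

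The parts of the rule left 206 of 429 immunoglobulin rows. Pseudogenes took 161 rows, which left 268. Another 32 rows were shorter than 100 bases, among them all 19 diversity segments and 13 of 14 joining segments. Of the 236 longer rows, 165 were above 0 in all 6 libraries, 24 in 5, 8 in 4 and 9 in 3, and these are the members. Another 11 rows were above 0 in 2 libraries, 7 in 1 and 12 in none. The members are 12 of 13 constant region genes, 1 joining segment and 193 of 218 variable segments. Of the variable segments 98 lie on the heavy chain locus, 92 on the kappa locus and 3 on the lambda locus. Just inside the rule lay Iglc4, a lambda constant gene with 4 reads in all. Just outside it lay Ighe, the constant region of IgE, which had 4 reads in cisplatin replicate 1, 1 read in cisplatin replicate 2 and 0 elsewhere.

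All 193 variable members were read in the GENCODE M21 annotation of GRCm38, and none held an in-frame stop codon before its last codon. The coding sequence began with ATG in 192 of 193. A cysteine codon following a codon for tyrosine or phenylalanine, the conserved end of the last framework region, was found in 190 of 193. It left a median of 6 bases to the end of the segment on the heavy chain locus and 23 bases on the kappa locus, which is the stretch that enters the antigen-binding loop. The last 60 coding bases are given below for the heavy and kappa variable segments with the most reads in their locus, for 3 segments with high counts or a large difference between the groups, and for the lambda segment with the most reads. Capitals mark the conserved cysteine codon, and each stretch is the end of the last exon of its segment. The positions, with strand, are chr12:114788372-114788431 (minus) for Ighv1-26, chr12:115507545-115507604 (minus) for Ighv1-64, chr6:67610449-67610508 (plus) for Igkv1-135, chr6:68736297-68736356 (minus) for Igkv19-93, chr6:68437866-68437925 (plus) for Igkv15-103 and chr16:19085017-19085076 (minus) for Iglv1.
Ighv1-26: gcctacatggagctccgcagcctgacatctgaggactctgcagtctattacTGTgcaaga
Ighv1-64: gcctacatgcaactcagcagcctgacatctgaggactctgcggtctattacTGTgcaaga
Igkv1-135: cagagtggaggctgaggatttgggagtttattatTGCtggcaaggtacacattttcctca
Igkv19-93: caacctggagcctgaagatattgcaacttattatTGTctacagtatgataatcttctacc
Igkv15-103: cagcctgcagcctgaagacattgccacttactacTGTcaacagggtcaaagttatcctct
Iglv1: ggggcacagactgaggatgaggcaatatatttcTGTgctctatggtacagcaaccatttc

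Immunoglobulin reads were more abundant in the cisplatin libraries than in the PBS libraries. Reads were recovered from the FPKM as whole numbers, and they summed to between 15776238 and 17924686 in a library. Sums over segments are given as RPM, the reads per 1000000 reads of a library. The 206 members took 2344, 2305 and 2295 RPM in cisplatin replicates 1, 2 and 3. In the PBS libraries they took 1195, 1248 and 1178 RPM. The groups did not overlap, and the ratio of their means was 1.92 (2315 ± 25.9 against 1207 ± 36.7 RPM, SD, n = 3 each). In bulk RNA, more cells of a type and more RNA per cell cannot be told apart. The ratio was 1.90 for the 106 heavy chain members, 2.13 for the 93 kappa members and 1.52 for the 7 lambda members. Constant region genes held 83.9% of the members' reads, and Ighm alone held 58.2%.

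The scale of the comparison bears on this ratio. The 4 genes Ddx3y, Eif2s3y, Kdm5d and Uty lie on the Y chromosome, which a line of ovarian origin does not carry. The methods do not give the sex of the marrow donors. A share of male cells that differs between the groups would shift every value at the scale of these genes. Ddx3y had an FPKM of 18.6 to 19.9 with cisplatin and of 7.60 to 8.64 with PBS, the largest difference of the 4. Group means were 17.8 against 10.7 for Eif2s3y, 2.39 against 1.05 for Kdm5d and 2.67 against 1.51 for Uty. Values at this scale therefore depend on which of these genes are used, and scaling to each gene alone was not run. When each library was scaled to the geometric mean of these 4 genes instead of to its depth, the summed immunoglobulin level of the cisplatin group was 0.904 times that of the PBS group, with 0.895 for the heavy chain, 0.987 for Igkc and 0.714 for lambda. Below, FPKM and log2 fold changes are at the authors' scale and RPM at the scale of the recovered total, unless the Y-linked scale is named. The authors' denominator was larger than the recovered total in the cisplatin libraries and smaller in the PBS libraries, so that ratios of RPM are somewhat above those of FPKM, and with it the summed ratio was 1.81. Markers of ID8 and mesothelial cells moved the other way. All 6 of the 6 tested genes of that list were lower at an adjusted p under 0.05, beside 35.1% of all genes. The list had a summed FPKM of 165 to 179 with cisplatin against 973 to 1048 with PBS. Krt19 had the highest values of the list, and without it the sums were 118 to 127 against 418 to 443. The part of the mixture of cells in the results below was not tested.

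Of the 206 members, 155 reached FPKM 1 in 3 or more libraries and were tested with limma among 13441 genes. A gene was called when its adjusted p was under 0.05 and its log2 fold change was at least 1 in either direction. Called higher were 29 of 155 (18.7%), beside 4.67% of all genes tested, and 0 were called lower, beside 11.3%. By the adjusted p alone, 94 of 155 (60.6%) were higher, beside 32.9% of all genes, and 0 were lower, beside 35.1%. No member was lower at an unadjusted p under 0.05 either, by limma, and limma voom on the recovered reads called 0 lower. All cisplatin libraries lay above all PBS libraries for 95 of 155 members (61.3%), beside 35.2% of all genes, and below them for 0. Over the 155 members the log2 fold change had a median of 0.72, and over all 13441 genes a median of -0.0011.

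Counts of this kind describe the members that passed the filter. Because FPKM of 1 was needed in any 3 libraries, 3 of the tested members passed it with no PBS library at 1, and 50 with fewer than 3 PBS libraries at 1. Scaled to the 4 Y-linked genes, the members' median log2 fold change was -0.03 and that of all genes was -0.83. At that scale 0 members were called in either direction, and the share of all genes called was not counted. By the adjusted p alone, 10 of 155 members (6.45%) were then higher, beside 3.71% of all genes, and 21 (13.5%) lower, beside 82.6%. Between the median of the members and that of all genes the distance was 0.72 at the authors' scale and 0.80 at the Y-linked scale.

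**Figure D1:**
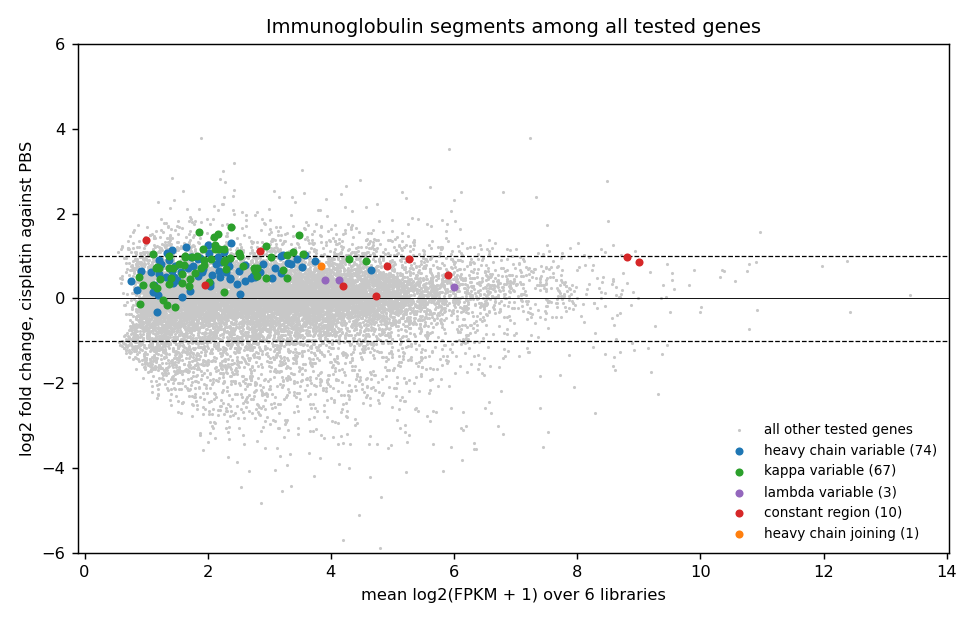
Log2 fold change of cisplatin against PBS (vertical axis) by the mean log2(FPKM + 1) over 6 libraries (horizontal axis), for 13441 tested genes in grey and 155 immunoglobulin members in colour. Dashed lines mark a log2 fold change of 1 in either direction; 150 members lie above 0 and 5 below at the authors' scale, whose median over all genes is 0.83 higher than at the Y-linked scale.

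Heavy chain constant genes were led by Ighm (chr12:113418558-113422730, minus strand), which encodes the constant region of IgM, the first class made by a B cell. Its FPKM was 701, 681 and 676 in the cisplatin libraries and 370, 398 and 373 in the PBS libraries, from 22495, 21105 and 21068 against 12365, 11687 and 10916 reads. All cisplatin values stood above all PBS values, and the log2 fold change was 0.85 at the authors' scale (SE 0.04, adjusted p = 2.49e-06) and -0.15 at the Y-linked scale (adjusted p = 0.0352). Ighd, which encodes IgD and is spliced from the same primary transcript as Ighm in mature B cells, had an FPKM of 39.5, 36.3 and 38.8 against 20.4, 24.1 and 21.9. Its log2 fold change was 0.76 (SE 0.07, adjusted p = 5.48e-05), or -0.20 at the Y-linked scale (adjusted p = 0.028), and it made up 5.57% ± 0.21 of the Ighm FPKM in the cisplatin group and 5.81% ± 0.284 in the PBS group (SD, n = 3). These shares overlapped (exact permutation p = 0.4, two-sided).

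The genes of the switched classes, which a B cell uses after class switch recombination, had unlike values. Ighg1, the constant region of IgG1, had 134, 95 and 66 reads in the cisplatin libraries and 13, 14 and 3 in the PBS libraries. Its FPKM was 3.04, 2.23 and 1.54 against 0.283, 0.347 and 0.0746, a ratio of means of 9.67. Both sets of values stood clear of each other, and the log2 fold change was 1.39 on the log2(FPKM + 1) scale (SE 0.19, adjusted p = 0.000543), 0.97 at the Y-linked scale (adjusted p = 0.00159) and 3.47 by limma voom on reads. No PBS library reached FPKM 1 for Ighg1, so it entered the test through the cisplatin libraries alone, and the ratio rests on few PBS reads.

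Ighg2b, the constant region of IgG2b, was also called. It had 393, 529 and 372 reads in the cisplatin libraries and 215, 179 and 126 in the PBS libraries. The log2 fold change was 1.11 (SE 0.17, adjusted p = 0.000904), and 0.26 at the Y-linked scale (adjusted p = 0.158). Ighg2c, the constant region of IgG2c in the C57BL/6 strain, had 41, 112 and 81 reads against 53, 57 and 49, and its groups overlapped. Its log2 fold change was 0.32, with a 95% interval from -0.31 to 0.96 (adjusted p = 0.314). Ighg3, for IgG3, was not tested, with 50, 18 and 25 reads against 33, 29 and 10. Igha encodes IgA, the class of mucosal secretions. It had an FPKM of 17.7, 20.5 and 20.2 against 16.3, 19.0 and 12.2, and a log2 fold change of 0.30, with a 95% interval from -0.05 to 0.65 (adjusted p = 0.112). At the Y-linked scale Igha was lower, at -0.64 (adjusted p = 0.00192). Ighj2, the joining segment of exactly 100 bases that the rule admits, had 24, 27 and 39 reads against 12, 22 and 16 (log2 fold change 0.76, SE 0.27, adjusted p = 0.0408).

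**Figure D2:**
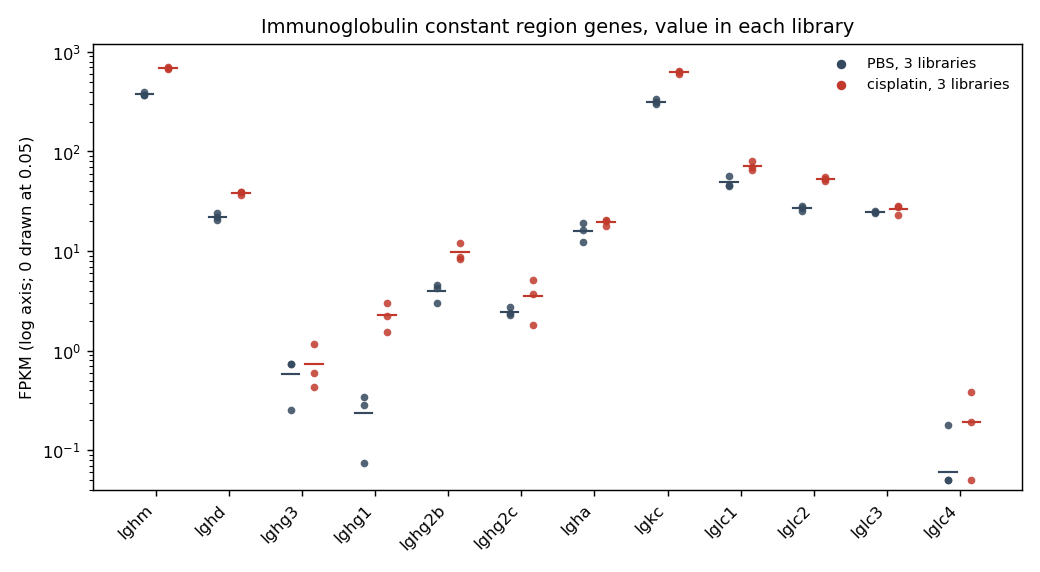
FPKM (vertical log axis; 0 drawn at 0.05) of the 12 constant region genes in each of the 6 libraries, with points for libraries and bars for group means. At the authors' scale Ighm lies at 676 to 701 with cisplatin and 370 to 398 with PBS, whereas the groups of Iglc3, Igha, Ighg2c, Ighg3 and Iglc4 overlap.

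On the light chain loci, Igkc (chr6:70726435-70726966, plus strand), the only kappa constant gene, had an FPKM of 643, 626 and 606 in the cisplatin libraries and 314, 339 and 299 in the PBS libraries. All cisplatin values were the higher ones, and the log2 fold change was 0.98 (SE 0.05, adjusted p = 5.3e-06), but -0.02 at the Y-linked scale. The lambda constant genes are given one by one. Iglc2 had 523, 526 and 559 reads against 275, 259 and 269, for which the log2 fold change was 0.94 (SE 0.05, adjusted p = 7.77e-06). Iglc1 had 505, 523 and 598 reads against 451, 323 and 315, for which it was 0.55 (SE 0.11, adjusted p = 0.00302). For Iglc3 the reads were 176, 204 and 211 against 195, 175 and 179. These groups overlapped, and the log2 fold change was 0.06, with a 95% interval from -0.12 to 0.25 (adjusted p = 0.494). At the Y-linked scale these values were -0.03 for Iglc2, -0.43 for Iglc1 and -0.90 for Iglc3, the last 2 past the adjusted p. Iglc4 had 3 reads in the cisplatin libraries and 1 in the PBS libraries together, too few to compare.

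Iglc2 and Iglc3 are near-copies, which limits how surely reads are divided between them. Over 314 coding bases they differed at 11, and the longest stretch they shared was 79 bases, whereas Iglc2 and Iglc1 differed at 83 positions of their alignment. The first 120 bases compared are given below, from chr16:19198733-19198852 for Iglc2, chr16:19065562-19065681 for Iglc3 and chr16:19061952-19062071 for Iglc1, all on the minus strand of GRCm38. Capitals in Iglc2 and Iglc3 mark the 7 bases at which these genes differ, and capitals in Iglc1 mark the 28 bases that differ from Iglc2.
Iglc2: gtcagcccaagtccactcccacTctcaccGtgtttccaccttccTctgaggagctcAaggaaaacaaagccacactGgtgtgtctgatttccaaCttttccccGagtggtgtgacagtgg
Iglc3: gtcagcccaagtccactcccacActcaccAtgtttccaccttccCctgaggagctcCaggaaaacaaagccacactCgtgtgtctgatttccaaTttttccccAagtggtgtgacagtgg
Iglc1: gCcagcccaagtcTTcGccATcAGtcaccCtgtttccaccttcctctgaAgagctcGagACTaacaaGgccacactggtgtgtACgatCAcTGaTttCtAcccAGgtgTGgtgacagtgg

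Lambda variable segments are few. In the mouse, Iglv1 lies beside Iglc3 and Iglc1, and Iglv2 and Iglv3 lie beside Iglc2 and Iglc4. Iglv1 had 485, 437 and 432 reads in the cisplatin libraries and 382, 364 and 351 in the PBS libraries. Its groups did not overlap, and its log2 fold change was 0.26 (SE 0.05, adjusted p = 0.00229). Iglv3 had 136, 112 and 123 reads against 91, 80 and 92, and its log2 fold change was 0.43 (SE 0.08, adjusted p = 0.00218). Iglv2 had 141, 91 and 78 reads against 74, 71 and 66, and its log2 fold change of 0.44 (SE 0.18) missed the threshold (adjusted p = 0.0659). At the Y-linked scale all 3 were lower, at -0.72 for Iglv1, -0.51 for Iglv3 and -0.49 for Iglv2, each past the adjusted p. Iglv1 and Iglv2 differed at 11 of 351 coding bases. The antisense gene 2010309G21Rik runs across Iglv1, Iglc1 and Iglc3, and it had at most 13 reads in a library. Since the strand used in counting is not stated, reads of the overlapping genes cannot be told apart.

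Relative to Ighm in the same library, the light chain genes took different courses, as the plot of ratios to Ighm shows. The FPKM of Igkc was 91.7%, 91.9% and 89.6% of that of Ighm in the cisplatin libraries and 84.7%, 85.3% and 80.1% in the PBS libraries. Iglc3 stood at 3.26%, 4.03% and 4.18% of Ighm against 6.58%, 6.25% and 6.84%, and Iglv1 at 10.4%, 9.99% and 9.89% against 14.9%, 15.0% and 15.5%. Both lambda genes were thus lower per Ighm in all cisplatin libraries. Iglc2 was at 7.67% ± 0.506 against 7.09% ± 0.435 (SD, n = 3), and these values overlapped. The summed FPKM of Iglc1, Iglc2 and Iglc3 was 0.241 ± 0.027 of Igkc in the cisplatin group and 0.318 ± 0.0266 in the PBS group. Igha was also lower per Ighm, at 2.84% ± 0.273 in the cisplatin group and 4.15% ± 0.782 in the PBS group. Ighg1 went the other way, at 0.433%, 0.328% and 0.228% of Ighm against 0.0765%, 0.0872% and 0.02%.

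A total of 21 such ratios were compared by exact permutation tests (two-sided), in which 3 libraries against 3 cannot give a p below 0.1. The groups did not overlap for 15 of the 21, each with an exact permutation p of 0.1, or 0.14 after Benjamini-Hochberg adjustment, so none passed 0.05.

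**Figure D3:**
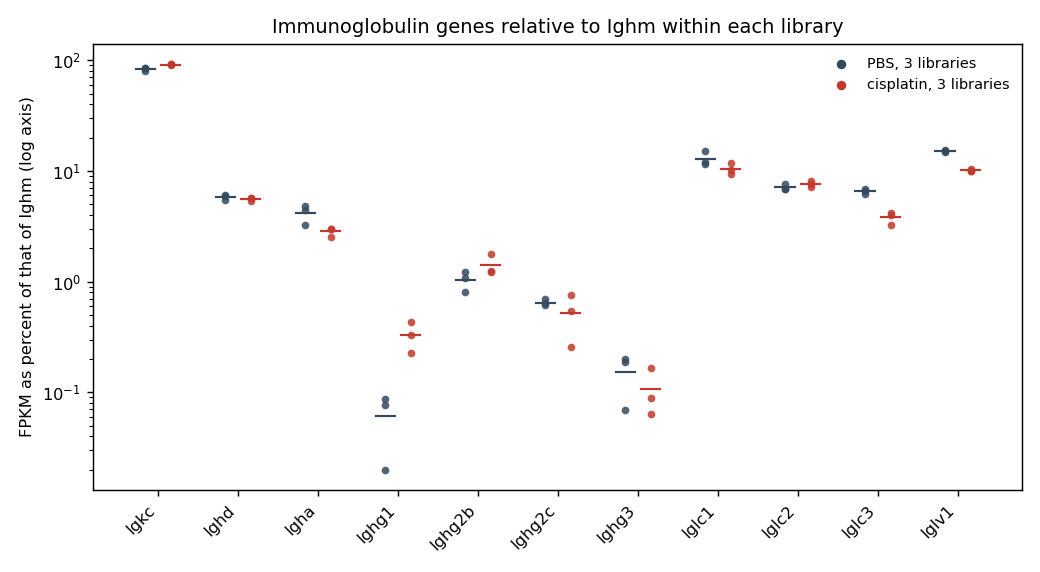
FPKM of 11 immunoglobulin genes as a percentage of the FPKM of Ighm in the same library (vertical log axis), with points for libraries and bars for group means. Iglc3, Iglv1 and Igha are lower and Ighg1, Ighg2b and Igkc higher in all cisplatin libraries; the other 5 genes overlap.

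Variable segments are the parts that differ between B cell clones, and their reads were shared unevenly. The 98 heavy chain members, which the rule required to have reads, had between 3 and 869 over the 6 libraries, and 19 segments made up 50% of their 12405 reads. On the kappa locus the 92 segments had between 4 and 931 reads, and 16 made up 50% of 11388 reads. Ighv1-26 and Igkv1-135 led these loci, with 7.01% and 8.18% of the variable reads of their locus. The 10 variable segments with the most reads over all loci took 29.1% of the variable reads, among them the 3 lambda segments described above.

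Among these 10, Igkv1-135 had 214, 187 and 213 reads in the cisplatin libraries and 123, 100 and 94 in the PBS libraries (log2 fold change 0.88, SE 0.07, adjusted p = 2.72e-05). Ighv1-26 had 165, 185 and 193 reads against 107, 95 and 124 (log2 fold change 0.68, SE 0.12, adjusted p = 0.002). Igkv1-117 had 145, 207 and 180 reads against 109, 78 and 77 (log2 fold change 0.93, SE 0.15, adjusted p = 0.00115). In each of these the groups did not overlap. Ighv3-6 had 88, 119 and 93 reads against 38, 60 and 55 (log2 fold change 0.87, SE 0.21, adjusted p = 0.00912). Ighv1-64, Igkv19-93 and Igkv10-96 were called and are described with the called segments. Across the 206 members, log2(FPKM + 1) correlated between libraries of the same group with Pearson's r from 0.914 to 0.945 and between libraries of different groups with r from 0.904 to 0.926. These are correlations across genes, which are not independent replicates.

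Called variable segments numbered 27 of 144 tested, 10 of 74 on the heavy chain locus, 17 of 67 on the kappa locus and 0 of 3 on the lambda locus. Whether the loci differ in this share was not tested. Igkv15-103 had the largest log2 fold change of the members, with 41, 48 and 71 reads in the cisplatin libraries and 20, 7 and 10 in the PBS libraries (1.69, SE 0.26, adjusted p = 0.00108). Igkv5-43 had 33, 39 and 28 reads against 14, 3 and 6 (1.56, SE 0.26, adjusted p = 0.00138). Igkv4-53 had 38, 44 and 39 reads against 16, 4 and 12 (1.53, SE 0.26, adjusted p = 0.00161). PBS replicate 2 held the lowest value of all 3. Igkv19-93 had 123, 76 and 134 reads against 38, 24 and 40 with a ratio of mean FPKM of 3.19 (adjusted p = 0.00103).

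The other 13 called kappa segments had log2 fold changes of up to 1.44, for Igkv10-94, and Igkv4-50 was the one closest to the limit of 1. Igkv10-96 had 97, 86 and 101 reads against 44, 38 and 43 (1.05, SE 0.07, adjusted p = 1.73e-05), the smallest adjusted p of the called segments. Igkv17-127 and Igkv17-121, the 2 members of their family, had log2 fold changes of 1.10 and 1.23. Igkv1-110 had 106, 78 and 78 reads against 32, 32 and 53. Igkv6-23, Igkv5-39, Igkv16-104, Igkv8-27, Igkv13-84 and Igkv4-68 lay between 1.07 and 1.25. Igkv8-28, with 14, 11 and 14 reads against 2, 3 and 4, rested on the fewest reads.

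On the heavy chain locus the called segments were Ighv1-78, Ighv4-1, Ighv1-58, Ighv1-59, Ighv9-2, Ighv1-72, Ighv2-3, Ighv7-3, Ighv1-64 and Ighv1-55, from the largest to the smallest log2 fold change. Ighv1-78 had 55, 39 and 43 reads against 15, 11 and 17 (1.31, SE 0.14, adjusted p = 0.000179), with the groups well apart. Ighv1-64 had 121, 103 and 101 reads against 68, 29 and 56 (1.03, SE 0.23, adjusted p = 0.00641). Ighv2-3 was the 1 called segment whose groups overlapped, with 23, 7 and 20 reads against 8, 1 and 5 (adjusted p = 0.0341). Ighv7-3 had 22 reads in PBS replicate 1, close to the 24 of cisplatin replicate 2.

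The values of called segments and of the other tested segments overlapped. For the called segments the ratio of mean FPKM ran from 2.09 to 4.39 with a median of 2.92, and that of the 117 tested segments that were not called ran from 0.674 to 3.11 with a median of 1.82. In 62 of these 117 all cisplatin libraries also lay above all PBS libraries, and in 26 of the 27 called. Scaled to the Y-linked genes, 9 of the 27 had an adjusted p under 0.05, beside 3.71% of all genes higher at that scale. Their log2 fold changes ran from 0.32 for Ighv1-72 to 0.92 for Igkv15-103. The 27 were picked by fold change and adjusted p in these same libraries, so the 9 are no independent support. Segments with a negative log2 fold change were Ighv14-1 (-0.32), Igkv6-20 (-0.20), Igkv3-1 (-0.17), Igkv9-129 (-0.14) and Igkv2-112 (-0.05), and their adjusted p was between 0.279 and 0.876. Those 5 were named after their values were seen. With 1 library left out, 14 of the 29 called members lost the call and 15 kept it. Those that lost it were Ighg2b, Ighv2-3, Ighv7-3, Igkv1-110, Ighv1-55, Ighv1-64, Igkv17-127, Igkv4-50, Igkv8-27, Ighv1-58, Igkv5-39, Igkv6-23, Igkv8-28 and Igkv10-96, with log2 fold changes of 0.74 to 1.15 without the library in question, and each of the 6 libraries was such a library for at least 1 of them.

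By family, which groups variable segments by sequence likeness, the higher level in the cisplatin libraries ran through most of both loci at the RPM scale, but scaled to the Y-linked genes the ratio of group means was above 1 for 7 of 15 heavy chain and 11 of 20 kappa families. All cisplatin libraries lay above all PBS libraries for the summed reads of 11 of 15 heavy chain families and 18 of 20 kappa families. Ighv1, the largest heavy chain family with 48 members, held 57.3% of the heavy chain variable reads. It took 94.6 to 96.3 RPM with cisplatin and 47.4 to 55.4 with PBS, a ratio of 1.89, or 0.886 at the Y-linked scale. Of its 36 tested members, 6 were called and 21 passed the adjusted p alone, and the 23 that had a mean of at least 5 reads and groups apart had log2 fold changes of 0.33 to 1.31. Ighv5, with 9 members, took 12.9 to 14.8 RPM against 6.47 to 6.91. Ighv14 had the smallest ratio of group means among the heavy chain families, 1.44, with 4.37 to 6.12 RPM against 3.08 to 4.41.

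The kappa families spread over a range of levels. Igkv1, with 8 members and 21.4% of the kappa variable reads, took 32.4 to 35.2 RPM against 14.8 to 17.1, a ratio of 2.12, or 0.998 at the Y-linked scale. Igkv4, with 23 members, took 17.8 to 22.1 against 7.25 to 7.67, a ratio of 2.71, or 1.28 at the Y-linked scale, and 3 of its 11 tested members were called. Igkv3, with 8 members, had a ratio of 1.72 and none called. Igkv15 and Igkv19 are families of 1 member each, Igkv15-103 and Igkv19-93, with RPM ratios of 4.59 and 3.38, or 2.17 and 1.58 at the Y-linked scale. Igkv20 had more RPM in the PBS group, on 8 reads in all. Gm43218 and Gm42543, kappa locus segments with no family in their name, had 46 reads together.

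**Figure D4:**
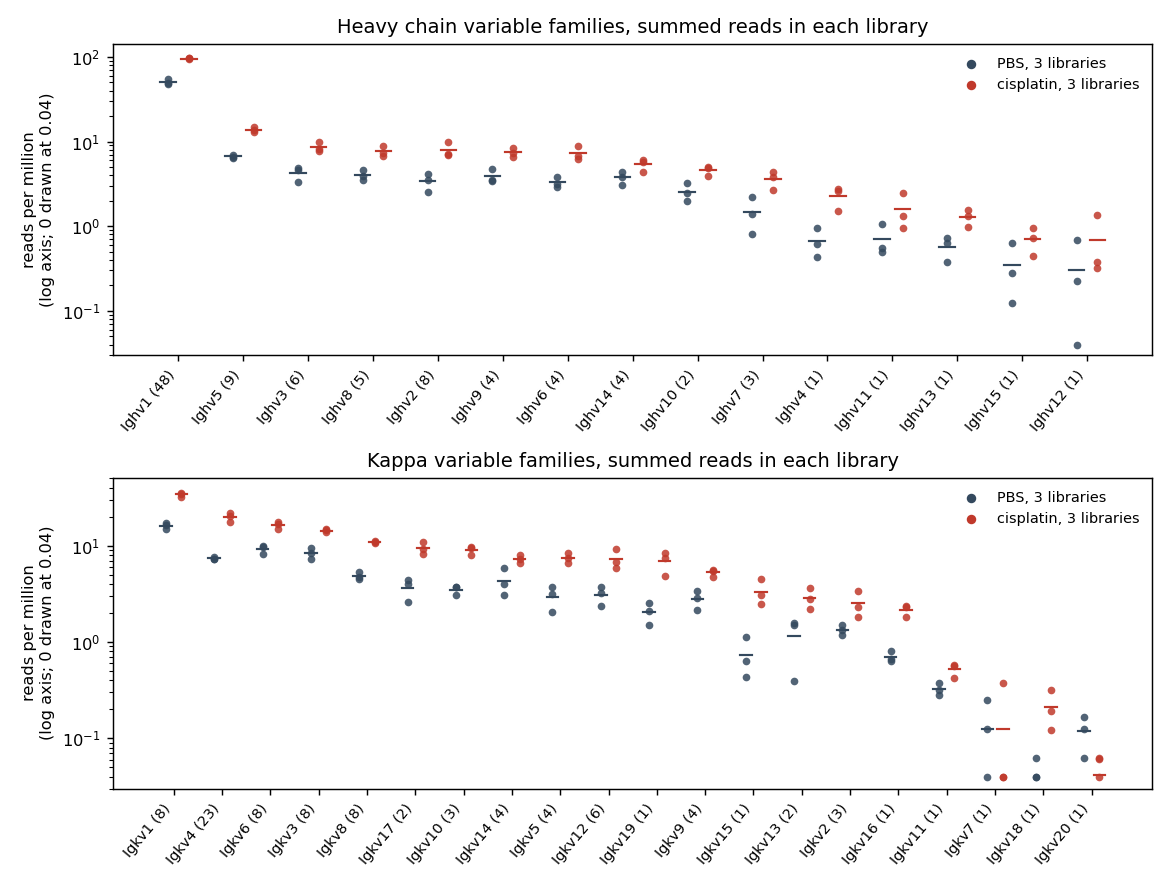
Summed RPM, reads per 1000000 reads (vertical log axis; 0 drawn at 0.04) of each heavy chain family (upper panel) and kappa family (lower panel) in each of the 6 libraries, with the number of members after the family name and bars for group means. Ighv1 lies at 94.6 to 96.3 with cisplatin and 47.4 to 55.4 with PBS at the RPM scale; scaled to the Y-linked genes the ratio of its group means is 0.886.

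In all, 162 members had a mean of at least 5 reads in a library, and in 98 of these the groups did not overlap, always with cisplatin above PBS (60.5%, beside 32.2% of all genes with such a mean). They were the 7 constant genes Ighm, Ighd, Ighg1, Ighg2b, Igkc, Iglc1 and Iglc2 together with 91 variable segments. The families with the most of these were Ighv1 with 23, Igkv4 with 8, and Ighv5, Igkv1, Igkv6 and Igkv8 with 5 each, and all 3 lambda segments were included. Reads in the cisplatin libraries and none in the PBS libraries were found for 3 members, and the reverse for 0. Igkv4-80 had 6, 3 and 13 reads, Ighv1-34 had 6, 3 and 6, and Ighv6-5 had 1, 1 and 3. A count of 0 in a library allows up to 3 reads, so these values do not show absence in the PBS group. The 51 members that were not tested had 3 to 165 reads over the 6 libraries, and their mean FPKM was higher in the cisplatin group for 40 and in the PBS group for 11. The matching shares over all genes were not counted, neither for reads in 1 group only nor for genes not tested. These counts therefore do not set the members apart from other genes.

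Variable segments were also placed by their distance from the constant gene. Heavy chain segments lay 156 to 2577 kb from Ighm, all on the minus strand. Across the 98 segments, Spearman's rho of distance with mean FPKM was 0.14, and of distance with log2 fold change over the 74 tested it was -0.16, as descriptions across genes. The nearest 33 segments held 3104 of 12405 reads and the farthest 33 held 4678. Kappa segments lay 22.3 to 3170 kb from Igkc, 36 on the plus strand, the strand of Igkc, and 56 on the minus strand. Their rho of distance was -0.03 with mean FPKM over the 92 segments and 0.19 with log2 fold change over the 67 tested. The plus-strand segments held 54.3% of the kappa variable reads with a median FPKM of 3.10, and the minus-strand segments 45.7% with a median of 1.88. By distance, the nearest 31 kappa segments held 30.9% of the reads, the middle 30 held 19.1% and the farthest 31 held 49.9%.

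**Figure D5:**
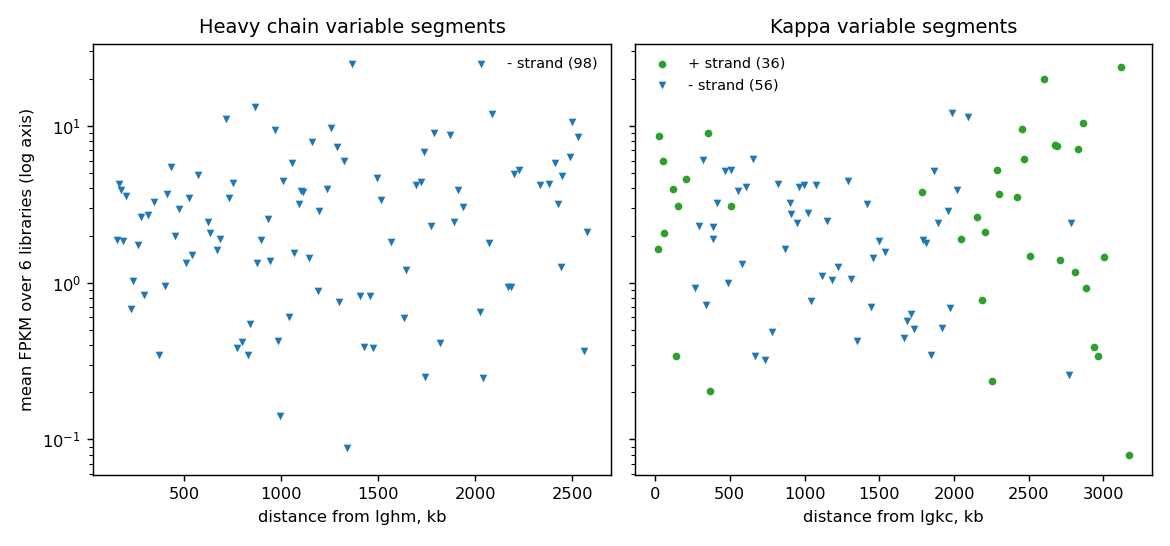
Mean FPKM over the 6 libraries (vertical log axis) of each variable segment by its distance in kb from Ighm (left panel, 98 segments) or Igkc (right panel, 92 segments), with the strand shown by the marker. Levels are scattered along both loci; the farthest 31 kappa segments hold 49.9% of the kappa variable reads.

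Likeness between segments limits how surely a read is placed. The nearest other immunoglobulin sequence of a variable member was identical at a median of 94.9% of bases, and the longest stretch shared with another had a median of 89 bases. A stretch of at least 150 bases was shared by 17 variable members, 3 of them called. For example, called Ighv1-72 had 34, 46 and 40 reads in the cisplatin libraries and 16, 13 and 15 in the PBS libraries, whereas Ighv1-62-3 had 3, 0 and 4 against 2, 1 and 0. These segments differ at 3 of 351 coding bases, counted from 1 at the ATG of Ighv1-72, namely C56T, T121A and T342C. T121A turns a TGC codon for cysteine into an AGC codon for serine. Coding bases 51 to 140 are given below for both, from chr12:115758195-115758284 for Ighv1-72 and chr12:115461210-115461299 for Ighv1-62-3, both on the minus strand of GRCm38, with capitals at the 2 bases in this stretch that differ.
Ighv1-72: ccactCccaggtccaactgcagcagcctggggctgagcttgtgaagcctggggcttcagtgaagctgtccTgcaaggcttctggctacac
Ighv1-62-3: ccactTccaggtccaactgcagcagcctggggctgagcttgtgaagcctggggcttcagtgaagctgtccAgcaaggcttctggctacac

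Called Igkv5-43 and Igkv5-45, which was not called, shared 193 bases, and so did Igkv13-84 and Igkv13-85. Igkv5-45 had 9, 21 and 22 reads against 21, 14 and 5, so that 2 near-copies had different values (log2 fold changes 1.56 and 0.29). The reads of these pairs are therefore less certain than those of other segments. Gm30211, a long non-coding RNA, overlaps Igkc on the same strand and had 147 to 299 reads in a library.

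The genes that make and carry the receptor were measured with it, from lists written with earlier results of these data known. Components and signalling partners of the B cell receptor numbered 17, of which 16 were tested, 6 were called higher and 1 lower. For these lists and the cell type markers that follow, the shares of all genes tested to set beside the counts are the 4.67% called higher and 11.3% called lower, and by the adjusted p alone 32.9% higher and 35.1% lower. Cd79a and Cd79b, the signalling chains that hold membrane immunoglobulin at the surface, had an FPKM of 141, 154 and 145 against 66.6, 59.8 and 65.4 and of 181, 179 and 174 against 81.0, 81.7 and 76.7. Their log2 fold changes were 1.19 (SE 0.053, adjusted p = 2.17e-06) and 1.15 (SE 0.0373, adjusted p = 5.24e-07). Btk, Plcg2 and Cd72 were also among the genes called higher. Cd81, a membrane protein that many cell types carry, was called lower, at 24.4 to 26.0 against 92.9 to 98.0. At the Y-linked scale Cd79a had a log2 fold change of 0.20 and Cd79b of 0.16.

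Of the surrogate light chain genes, whose products pair with IgM heavy chain in pre-B cells before a light chain is made, 3 of 4 were tested and 2 were called higher. Vpreb3 had an FPKM of 49.2, 46.4 and 49.1 against 20.3, 17.2 and 16.6 (log2 fold change 1.38, SE 0.0748, adjusted p = 5.61e-06), and Igll1 6.09, 7.88 and 6.16 against 2.53, 1.45 and 2.77 (1.26, SE 0.178, adjusted p = 0.000651). Vpreb1 was at 0.84 (adjusted p = 0.000126) and was not called. Of 10 recombination genes, all tested, 1 was called higher. Rag1, a subunit of the recombinase that cuts at the segments, had 13.3, 13.3 and 13.9 against 4.03, 5.61 and 5.30 (1.29, SE 0.103, adjusted p = 3.71e-05). Rag2 was at 0.53 and Dntt, which adds bases at the joints, at 0.90, both past the adjusted p. Xrcc5, an end-joining factor of all cells, was at -0.64.

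Transcription factors of the B lineage were higher by the adjusted p alone in 12 of 13, beside 32.9% of all genes, but at the Y-linked scale 11 of the 13 had negative log2 fold changes, beside 91.4% of all genes tested. Called was 1, Ikzf3 (18.4 to 19.0 against 7.60 to 8.16). Pax5 and Ebf1, which set the B cell programme, had log2 fold changes of 0.65 and 0.90, or -0.30 and 0.11 at the Y-linked scale. Class switching and hypermutation genes were 7, all tested, with 1 called higher, Apex1, a base-excision enzyme of all cells, and 4 lower by the adjusted p alone. Antibody secretion genes were 9, of which 8 were tested, 0 were called higher and 1 lower, Sdc1. By the adjusted p alone 1 was higher and 4 were lower, namely Xbp1, Sdc1, Derl3 and Pim2. Jchain, which links IgM and IgA units, was higher, at 7.77 ± 0.981 against 3.58 ± 0.805 (SD, n = 3; 0.95, SE 0.147, adjusted p = 0.00106), whereas Xbp1 was at -0.19 (adjusted p = 0.00259). Mzb1, at -0.20, did not pass (adjusted p = 0.132). The medians of these lists were 0.27 for recombination, 1.26 for surrogate light chain, 0.80 for the receptor, 0.65 for transcription factors, -0.25 for class switching and -0.19 for secretion, beside -0.0011 for all genes tested. At the Y-linked scale the log2 fold change was negative for 6 of 10 tested recombination genes, 1 of 3 surrogate light chain genes, 9 of 16 receptor genes, 6 of 7 class switching genes and 7 of 8 secretion genes, beside 91.4% of all genes tested.

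Cell type markers placed the immunoglobulin reads beside those of other cells. Mature B cell markers had 9 of 10 tested, 6 called higher and a summed FPKM of 525 to 532 with cisplatin against 240 to 246 with PBS. Early B cell markers had 7 of 8 tested, 3 called higher and a sum of 92.9 to 94.6 against 37.2 to 38.2. Plasma cell markers summed to 43.5 to 48.8 against 73.8 to 81.7, with 0 called higher, 1 called lower and Tnfrsf17, a defining marker, listed at 0 in all cisplatin libraries and at no more than 0.158 in the PBS libraries. Sdc1 made up the gap, and without it the sums overlapped, at 26.0 to 29.2 against 25.6 to 30.0. Macrophage markers were higher by the adjusted p in 10 of 10, beside 32.9% of all genes, with 5 called, beside 4.67%, and a sum of 4229 to 4385 against 1644 to 1655, but at the Y-linked scale 5 of the 10 had negative log2 fold changes, beside 91.4% of all genes. Most of that sum was Lyz2, and without it the sums were 819.8 to 834 against 483 to 497. Adgre1, which encodes the macrophage marker F4/80, had an FPKM of 187 to 194 against 102 to 104, so this defining marker of the labelled cells was present in all libraries. T cell markers summed to 20.6 to 21.8 against 15.5 to 18.8, with 0 called, and markers of plasmacytoid dendritic cells to 250 to 266 against 151 to 155, with 2 called higher. Ly6d, which B lineage cells also carry, made up most of the latter sum, and without it the sums were 26.1 to 27.4 against 12.3 to 13.8. At the Y-linked scale the log2 fold change was negative for 2 of 9 mature B cell, 1 of 7 early B cell, 4 of 5 plasma cell, 4 of 7 plasmacytoid dendritic cell and 6 of 6 T cell markers tested, beside 91.4% of all genes tested. The part of each cell type in the immunoglobulin reads was not tested.

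Ighm and the B cell markers were set against each other within a library. The FPKM of Ighm was 4.69 ± 0.264 times that of Cd79a in the cisplatin group and 5.98 ± 0.592 times in the PBS group (SD, n = 3). Per Ms4a1, which encodes CD20, it was 14.0 ± 0.492 against 24.2 ± 0.399, and per Pax5 25.2 ± 1.45 against 22.4 ± 0.685. In these 3 ratios the groups did not overlap. Per Adgre1 Ighm was at 3.74, 3.52 and 3.60 against 3.59, 3.82 and 3.66, which overlapped (exact permutation p = 0.6, two-sided). Per Lyz2, another macrophage gene, it was 0.199 ± 0.00714 against 0.328 ± 0.0141, and these did not overlap. Per the geometric mean of the 4 Y-linked genes it was 101 ± 0.481 against 111 ± 4.50. Ighm was thus lower per Cd79a and Ms4a1 and higher per Pax5, each at the smallest p that the exact permutation test can give, 0.1.

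T cell receptor segments and immunoglobulin pseudogenes, kept by the same rule, lay far lower. Of 152 T cell receptor rows of at least 100 bases 23 were detected in at least 3 libraries, and they took 8.89 to 10.7 RPM with cisplatin and 5.88 to 7.75 with PBS. Of these 3 were tested and 0 called by limma, with 2 higher by the adjusted p alone. Of 157 immunoglobulin pseudogene rows 22 were detected, with a median of 9.5 reads over the 6 libraries beside 94.5 for the immunoglobulin segments, and 1 was tested. Joining segments under 100 bases are no members, and the 5 kappa joining segments had 498, 458 and 499 reads in the cisplatin libraries and 235, 247 and 187 in the PBS libraries.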

How the data were processed

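The deposited table gives FPKM per gene for 3 cisplatin and 3 PBS libraries. In the methods, the authors describe quality filtering and LifeScope for alignment and counting, whereas the submitters' processing notes name fastp, HISAT2 2.0.5, featureCounts 1.5.0-p3 and mm10, so the aligner behind the values is not settled. Strand use and the treatment of reads with several matches are not stated. FPKM multiplied by gene length gave whole reads (tolerance 0.02) for 100% of values under 200 reads, and the denominator was 103.7% to 104.1% of their sum with cisplatin and 97.4% to 98.7% with PBS.

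Genes with FPKM of at least 1 in at least 3 libraries were fitted as log2(FPKM + 1) with group as the only term (limma 3.58.1, lmFit, then eBayes with a trend, R 4.3.3; Benjamini-Hochberg over 13441 genes). Fold changes on this scale understate those of low genes. As the deposited values are FPKM and not counts, limma took the place of the study's DESeq2 test, and limma voom on the recovered reads was an alternative. The fit was also run on simulated reads, and the outcome of that run is not given here. Members, lists and tests were chosen with earlier results of these data known. Named were constant genes, called members, the 10 variable segments with the most reads and members with reads in 1 group only. Members with a mean of at least 5 reads and groups apart were 98 and are given by family. Other list genes were named after their values were seen. Sequences are from GENCODE M21 (GRCm38), where all 206 identifiers had the same coordinates. Intervals and floors cover counting or replicate error only.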

Additional observations from a re-analysis of the deposited data

How the results depend on the processing

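The count of 29 members called higher was 51 with a pseudocount of 0.1, 15 of 58 tested with a filter at 5 FPKM, 73 by limma voom on recovered reads, 44 with scaling by the recovered total, 49 with TPM rescaling, 94 by the adjusted p alone and 0 with scaling by the Y-linked genes. It was 30 without a filter, 28 with a mean of at least 10 reads, 32 with median-of-ratios scaling, 29 without a trend and 29 for members above 0 in all 6 libraries, a choice made after the data were seen. With a replicate block it was 29, but the numbers do not pair the libraries, since the deviations of same-numbered libraries correlated at -0.10, -0.09 and -0.02. Leaving out 1 library gave 30 to 39, of which 23 to 27 were among the 29, and the log2 fold changes of the 14 calls lost were 0.74 to 1.15. No member was called lower under the alternatives run, voom included. The share of all genes called was not counted for the other fits, here and for the lists below. The distance between the median of the members and that of all genes tested ran from 0.63 without a filter to 0.96 with a pseudocount of 0.1. The median log2 fold change of 0.72 was 0.96 with a pseudocount of 0.1, 0.64 without a filter, 0.80 at 5 FPKM, 0.76 with at least 10 reads, 1.04 by voom, 0.79 with the recovered total, 0.89 with TPM and -0.028 with the Y-linked genes, and 0.69 to 0.77 with 1 library left out. The summed reads had a ratio of 1.81 with the authors' denominator, 1.82 with median-of-ratios scaling and 0.904 with the Y-linked genes, and 1.90 to 1.95 with 1 library left out.

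Of the pathway lists, 11 genes were called higher and 2 lower; 17 and 4 with a pseudocount of 0.1, 21 higher by voom, and 0 and 11 with the Y-linked genes. Of the cell type markers, 16 were called higher and 6 lower, and 4 and 10 with the Y-linked genes. The tested pseudogene was called without PBS replicate 3 only, giving 0 to 1. The number of detected segments was 165 to 224 under its 4 alternatives. Why these values moved was not tested, beyond the fewer genes of the stricter filters. Segments with few reads limit the rest: 74 of the 206 members had a mean under 10 reads in a library.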
